A study of Mus musculus with 23 samples.

Results

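Ribosomal proteins and translation factors are the protein parts of the translation apparatus. They were taken here by gene symbol: Rpl, Rps, Rplp and Rpsa for cytosolic ribosomal proteins, Mrpl and Mrps for mitochondrial ones, Eif1 to Eif6 and Eef1 to Eef2 for factors, without the Rps6k kinases. The rule used no measured value. It found 114 probes for 113 symbols among 8997 probes for 8726 symbols, namely 37 cytosolic, 52 mitochondrial and 25 factor probes. No Rplp or Rpsa probe was among them.

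The tissue was prefrontal cortex of male Balb/c mice, 8 weeks old. Tumour animals had 1000000 cells of the murine colon carcinoma line CT-26.WT injected under the skin in 300 µl of PBS, and control animals 300 µl of PBS alone; cortex was taken 18, 72 or 192 h later. RNA of a tumour cortex and RNA of a PBS cortex were hybridised together to a 2-colour oligonucleotide array printed in house, and each value below is the log2 of tumour signal divided by PBS signal on the same array. Whether a sample was 1 animal or a pool is not given in the sources used here, and p-values then measure the spread between these samples.

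The deposit held 23 arrays of 11 biological replicates, with 10080 spots per array and 3 scanner files for each. Only 16 arrays of 9 replicates entered the comparisons: replicates 3, 4 and 5 at 18 h, 3 and 4 at 72 h, and 1, 2, 3 and 4 at 192 h. The other 7 arrays were left out because the intensities of their probes, members set aside, had a mean Spearman rho of only 0.00648 to 0.0507 with arrays of other print layouts, against 0.186 to 0.497 on the arrays kept. They were all arrays of 72 h replicates 1 and 2, 1 array of 72 h replicate 3 and 1 of 192 h replicate 1. RNA of 192 h replicates 1 and 2 was poly(A) RNA and that of the other 7 kept replicates total RNA. All 18 h and 72 h replicates and 192 h replicate 4 were on print layout 5, 192 h replicate 3 on layout 4 and the poly(A) replicates on layout 3, so RNA kind and layout cannot be told apart at 192 h. In 6 replicates the dyes were swapped between a pair of arrays; 72 h replicate 3 and 192 h replicate 1 had tumour RNA in Cy5 alone, and 192 h replicate 2 had it in Cy3 alone. Which scanner channel held which dye was inferred from the deposited scores, and if the channels were the other way round every direction below would turn. The kept files had 1821 to 8638 usable spots each, and a median spot signal with background of 1.97 to 3.15 times the local background per array. Of the markers fixed for cortex, the neuronal synaptic gene Snap25 lay at an intensity percentile of 92.4. The median percentile was 57.7 for 6 neuronal probes, 70.3 for 2 astrocyte probes, 59.8 for 1 oligodendrocyte probe, 58.0 for 2 striatal probes, 50.8 for 3 probes of choroid plexus and meninges, 36.7 for 6 microglial probes, 29.7 for 5 blood probes, 26.6 for 1 endothelial probe and 31.7 for 4 epithelial probes. No marker probe of those lists was called at any time.

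The cytosolic ribosome translates nuclear transcripts, and its large and small subunit each combine ribosomal RNA with many small proteins. The mitochondrial ribosome is a separate machine, with nuclear-encoded proteins, that makes the few respiratory chain subunits encoded in mitochondrial DNA. Initiation factors bring the small subunit, the initiator tRNA and the capped mRNA together: eIF4E binds the cap, eIF3 is the scaffold on the small subunit, and eIF2 delivers the initiator tRNA. Kinases that phosphorylate eIF2 (Eif2ak1 to Eif2ak4) and the 4E-binding proteins that hold eIF4E slow initiation under stress. Many transcripts of cytosolic ribosomal proteins begin with a C and a run of pyrimidines, the TOP motif, through which mTOR signalling controls their translation. An array of transcript levels does not measure that translation.

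Spots of cytosolic ribosomal proteins were among the brightest on the kept arrays. Those arrays were chosen by intensity correlation with comparison arrays picked through 60 respiratory chain probes. The median percentile of these probes was 63.7 to 94.6 on kept arrays and 40.9 to 64.5 on arrays left out. High cytosolic ranks on kept arrays are therefore not independent of the choice of arrays. Over all 23 arrays the cytosolic median percentile was 74.5. On the kept arrays the 37 cytosolic probes had a median intensity percentile of 85.6 in the PBS channel, with a range from 36.8 to 95.5 over probes, and 25 of them lay above the 75th percentile. The 52 mitochondrial probes had a median of 57.3 (26.8 to 80.7), with 2 above the 75th percentile, and the 25 factor probes had a median of 52.1 (9.89 to 80.3), with 3 above it. Each percentile is a rank among all probes of the same array, averaged over arrays and replicates. A spot's brightness also depends on its oligonucleotide, so these ranks order spots and not transcripts, and they were not tested. The cytosolic median per replicate was 79.9, 69.1 and 86.1 at 18 h (replicates 3, 4 and 5), 95.7 and 95.2 at 72 h (replicates 3 and 4), and 87.6, 93.5, 92.7 and 97.4 at 192 h (replicates 1 to 4). The 3 replicates with the lowest cytosolic rank were those of 18 h. In replicate 3 the array with tumour RNA in Cy5 stood at 65.7 and its partner at 92.4. In replicate 5 they stood at 79.7 and 91.4, and in replicate 4 at 80.7 and 79.1. A file of that Cy5 array of replicate 3 had only 1821 usable spots, so the low rank need not belong to the time. The cytosolic median was above the mitochondrial (42.6 to 69.2) and the factor median (39.2 to 74.5) of every kept replicate. Of the 16 single arrays 1 went the other way, the array of replicate 5 at 18 h with tumour RNA in Cy5, where the mitochondrial median was 82.5 and the cytosolic 79.7 in the PBS channel, and 86.0 and 78.3 in the tumour channel. Replicates of poly(A) RNA, at 87.6 and 93.5, fell inside the range of the total RNA replicates. In the tumour channel the cytosolic median per array was 69.0 to 97.2, and in the PBS channel 65.7 to 97.3.

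**Figure D1:**
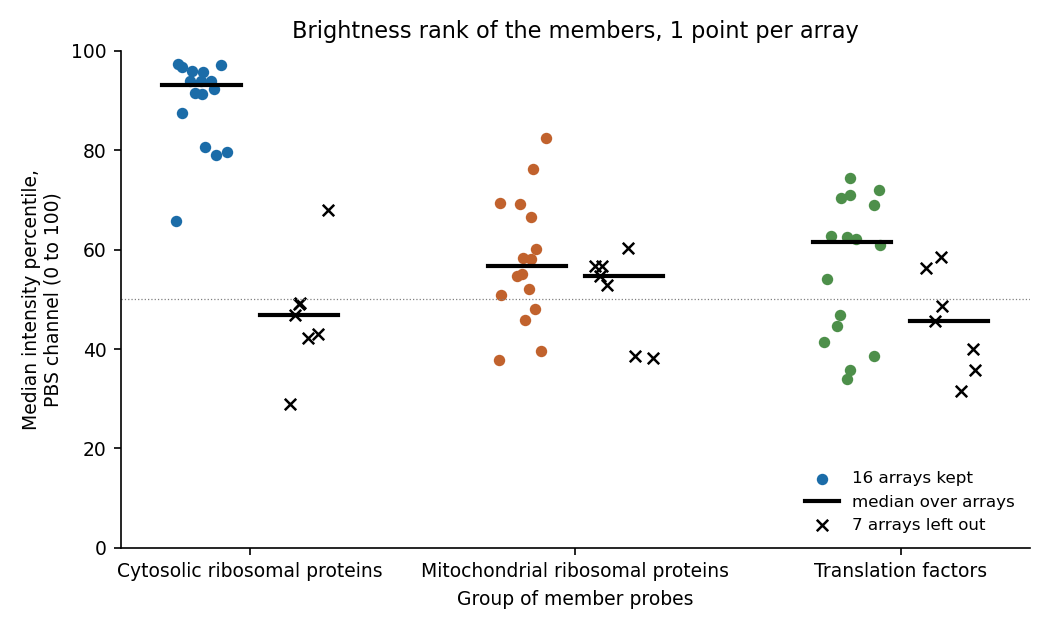
Median intensity percentile (0 to 100, PBS channel) of the member probes on each array, for the 16 arrays kept (circles) and the 7 left out (crosses), with bars at the median over arrays. Cytosolic medians lay between 65.7 and 97.3 on kept arrays, and between 28.9 and 68.0 on arrays left out. The choice of arrays used respiratory chain probes, so this contrast is not independent of it. On 1 kept array, of replicate 5 at 18 h, the mitochondrial median (82.5) was above the cytosolic (79.7).

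The brightest members were Rps15, Rpl37, Rps27, Rpl8, Rpl7a and Rps20, at mean percentiles of 95.5, 93.2, 93.2, 93.1, 92.3 and 92.2. All are structural proteins of the cytosolic ribosome. Rps19, a small subunit protein, was the dimmest of the cytosolic probes at 36.8. Among all members the dimmest were Eif6, an anti-association factor of the large subunit, at 9.89, Eif4ebp2, a 4E-binding protein of brain, at 22.6, and Mrpl21, a large subunit protein of the mitochondrial ribosome, at 26.8. A usable spot was present on 92.9% of probe and array combinations for cytosolic members, on 77.6% for mitochondrial members, on 79% for factors and on 71.9% for all probes.

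The annotated start sites were read from RefSeq windows of assembly GRCm38.p6, each 250 bases before to 50 bases after a start, which 96 of the 113 symbols had. The search was for a C followed by at least 4 further pyrimidines (C or T), beginning within 5 bases of the annotated start, on the strand of the gene only. It found such a run at 8 of 29 cytosolic genes (27.6%), 11 of 46 mitochondrial genes (23.9%) and 5 of 21 factor genes (23.8%), taking the first window listed for each gene. Of these genes 10 had several windows, and for 3 of them the windows differed in the run. Over all genes with a window, 4989 of 27025 had one (18.5%). The cytosolic genes with a run were Rpl13a, Rpl34, Rpl35, Rpl38, Rpl7a, Rps10, Rps27 and Rps6. Their median intensity percentile was 84.6, and that of the 21 cytosolic genes without one 85.4. Windows of 40 bases before to 20 after the start are shown for 4 of the brightest members, Rps27 (chr3:90213629-90213688, minus strand), Rpl7a (chr2:26910767-26910826, plus strand), Rps15 (chr10:80292391-80292450, plus strand) and Rpl37 (chr15:5116573-5116632, plus strand). They are also shown for 3 members whose ratios are described below, Mrpl3 (chr9:105053228-105053287, plus strand), Mrps7 (chr11:115604100-115604159, plus strand) and Eif3a (chr19:60790674-60790733, minus strand). Capitals mark the stretch that met the rule, from the first C within 5 bases of the start to the last pyrimidine after it, and each sequence runs 5′ to 3′ along the gene.
Rps27: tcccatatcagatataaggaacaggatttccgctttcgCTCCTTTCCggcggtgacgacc
Rpl7a: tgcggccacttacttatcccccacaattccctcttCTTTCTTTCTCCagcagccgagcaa
Rps15: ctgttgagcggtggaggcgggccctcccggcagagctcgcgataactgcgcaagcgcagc
Rpl37: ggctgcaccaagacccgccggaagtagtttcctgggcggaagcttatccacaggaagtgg
Mrpl3: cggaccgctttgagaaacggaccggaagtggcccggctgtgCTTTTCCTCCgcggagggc
Mrps7: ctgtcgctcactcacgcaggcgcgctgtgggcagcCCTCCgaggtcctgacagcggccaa
Eif3a: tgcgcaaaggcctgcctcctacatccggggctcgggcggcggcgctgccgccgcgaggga
In Rpl7a and Mrps7 the pyrimidines go on upstream of the capitals, beyond the limit of 5 bases. Rps15 and Rpl37 lacked a run by this rule although they were among the brightest probes. A match describes letters beside an annotated start, and no match says only that no such run begins within 5 bases of that start. Runs further away, as in the Rps15 and Eif3a windows above, were not counted.

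The first question of the design was whether transcripts of the translation apparatus differed between tumour and PBS cortex at 18, 72 or 192 h. No member passed at any time. The limma test, fitted on all probes with a mean per time and a dye term and adjusted by the Benjamini-Hochberg method at a threshold of 0.05, called 0 of 91 members tested at 18 h (0% of 5733 probes were called), 0 of 85 at 72 h (0.0225% of 4440 probes) and 0 of 103 at 192 h (0.0155% of 6465 probes). At an unadjusted p under 0.05 there were 4 members at 18 h (Mrps36, Mrps18a, Mrpl3 and Eif3a), 1 at 72 h (Mrps17) and 1 at 192 h (Mrps7), where 5.97%, 1.46% and 3.71% of all probes lay. A probe needed at least 2 replicates at a time, and 108 of the 114 members were tested at 1 time or in 1 comparison. A member's ratio had a median standard error of 0.15 (18 h), 0.18 (72 h) and 0.14 (192 h) on the log2 scale. RNA came from bulk tissue, in which fewer cells of a type and less RNA per cell cannot be told apart.

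Cytosolic ribosomal proteins stood close to 0 at each time. The median of their fitted ratios was -0.05 at 18 h (14 higher and 19 lower of 33), 0.02 for 72 h (17 higher and 15 lower of 32) and 0.03 for 192 h (23 higher and 14 lower of 37). Over all probes the medians were -0.02, -0.01 and 0.01, with 54.4% of probes below 0 at 18 h, 52.7% below 0 at 72 h and 53.5% above 0 at 192 h (45.6%, 47.3% and 46.5% on the other side). Mitochondrial ribosomal proteins had medians of 0.01 (19 higher and 18 lower of 37), -0.02 (16 and 21 of 37) and 0.03 (24 and 20 of 44). Factors had a median of -0.10 at 18 h, with 4 higher and 17 lower of 21, of 0.03 at 72 h, with 9 higher and 7 lower of 16, and of 0.09 at 192 h, with 18 higher and 4 lower of 22. Factors were thus the group with the most uneven counts, lower in most probes at 18 h and higher in most at 192 h, but none of these probes was called. Without 192 h replicate 1 the factor median at 192 h was 0.022, and with total RNA replicates only it was 0.0061. Cell type markers also differed from 0 at an unadjusted p under 0.05 in the limma test. At 18 h these were the neuronal gene Snap25 with -0.65 ± 0.19 and the meningeal growth factor gene Igf2 with 0.53 ± 0.17 (adjusted p = 0.759 each). At 192 h they were Kl, of choroid plexus and meninges, with 0.38 ± 0.15 and the microglial gene C1qc with 0.36 ± 0.15 (adjusted p = 0.999 each). Over all probes 5.97% were under that level at 18 h and 3.71% at 192 h. The 6 neuronal probes had 2 of 5 tested higher at 18 h and replicate medians of 0.07, 0.05 and -0.41. The 3 probes of choroid plexus and meninges had 2 of 3 higher and replicate medians of 0.56, 0.34 and 0.13, and the part of these markers in the factor values was not tested. The eIF3 subunits were 8 of those factors, lower in 7 of 8 at 18 h (median -0.17) and higher in 7 of 8 at 192 h (median 0.09). The design did not set eIF3 apart from the other initiation factors, and such counts were not particular to it. Initiation factors outside eIF2, eIF2B and eIF3 were lower in 4 of 5 at 18 h and higher in 5 of 6 at 192 h. Methyltransferases of eEF1A had 2 of 2 and 2 of 2, and regulators 2 of 3 and 2 of 4. By replicate, the eIF3 median was -0.12, -0.07 and -0.16 at 18 h (6, 5 and 8 probes), -0.0096 and 0.11 at 72 h (7 and 5), and 0.12, 0.07, -0.05 and 0.08 at 192 h (7, 8, 4 and 6). All replicates of 18 h were thus below 0 for eIF3, while those of 72 h and 192 h lay on both sides. With the authors' deposited scores in the same fit, factors were higher in 4 and lower in 8 of 12 probes at 18 h, and higher in 16 and lower in 4 of 20 at 192 h. Cytosolic probes had 11 higher and 11 lower at 18 h and 24 and 13 at 192 h by those scores. Mitochondrial probes had 10 and 12, and 21 and 19. The share of all probes on each side by those scores is not given here. The scores come from the same hybridisations and are no second source for a direction.

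**Figure D2:**
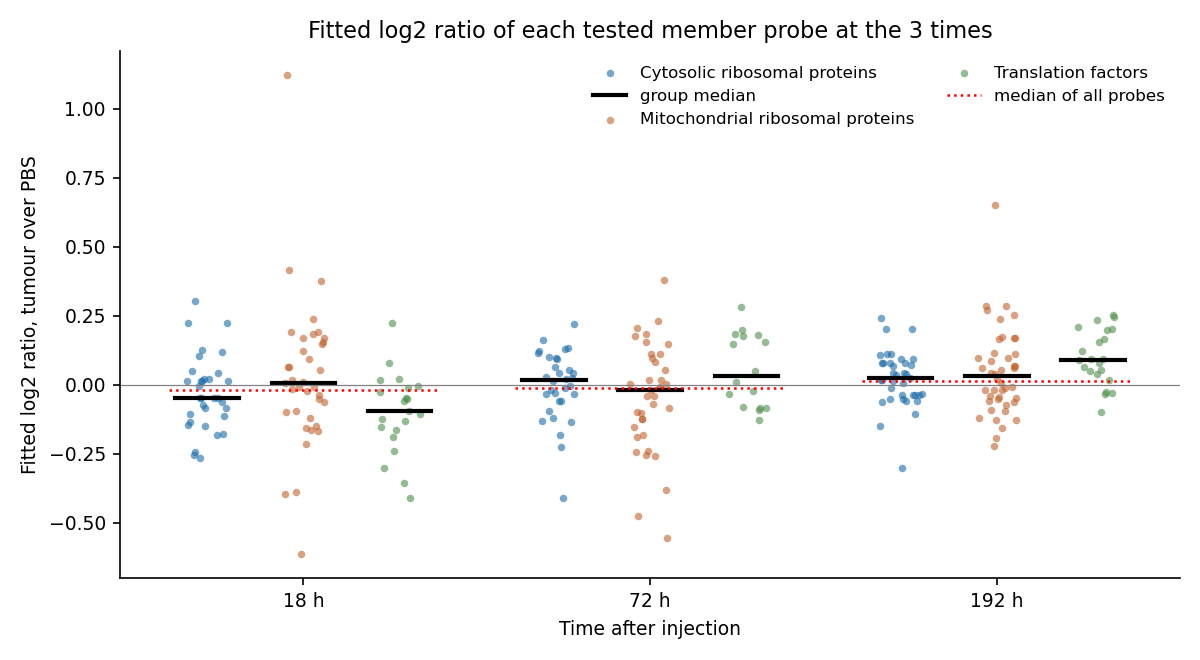
Fitted log2 ratio of tumour over PBS for each tested member probe at 18, 72 and 192 h, with a point per probe, black bars at group medians and dotted red lines at the median of all probes. The group medians lay between -0.10 and 0.09, and no probe was called.

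Replicates of a time differed in the direction of a whole group. The cytosolic median was 0.12, -0.21 and -0.04 in replicates 3, 4 and 5 at 18 h, -0.13 in replicate 3 and 0.13 in replicate 4 at 72 h, and 0.06, -0.04, 0.08 and -0.04 in replicates 1 to 4 at 192 h. At 72 h, 26 of 36 cytosolic probes lay below 0 in replicate 3 and 31 of 33 above 0 in replicate 4, where 50.9% and 54.8% of all probes lay on those sides. This was sharpest for the small subunit, with 13 of 14 probes below 0 in replicate 3 (median -0.18, range -0.33 to 0.12) and 14 of 14 above 0 in replicate 4 (median 0.13, range 0.07 to 0.23). Replicate 3 rests on a single array with tumour RNA in Cy5, and replicate 4 on a dye swap. That single array had a mean Spearman rho of 0.19 with other layouts, but of only 0.055 with the other arrays of its own layout. This was the lowest own-layout value of the kept arrays, whose median was 0.36, and its left-out Cy3 partner had 0.081. At 18 h the small subunit lay above 0 in 10 of 14 probes of replicate 3, 1 of 10 of replicate 4 and 3 of 14 of replicate 5. The mitochondrial medians were 0.04, -0.08 and 0.04 at 18 h, -0.02 and 0.05 at 72 h, and 0.19, 0.01, 0.03 and -0.01 at 192 h. The factor medians were 0.03, -0.11 and -0.07 at 18 h, -0.0047 and 0.11 at 72 h, and 0.16, -0.01, 0.08 and 0.05 at 192 h. No group median had 1 direction in all replicates of a time, with the medians of all probes between -0.02 and 0.04.

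**Figure D3:**
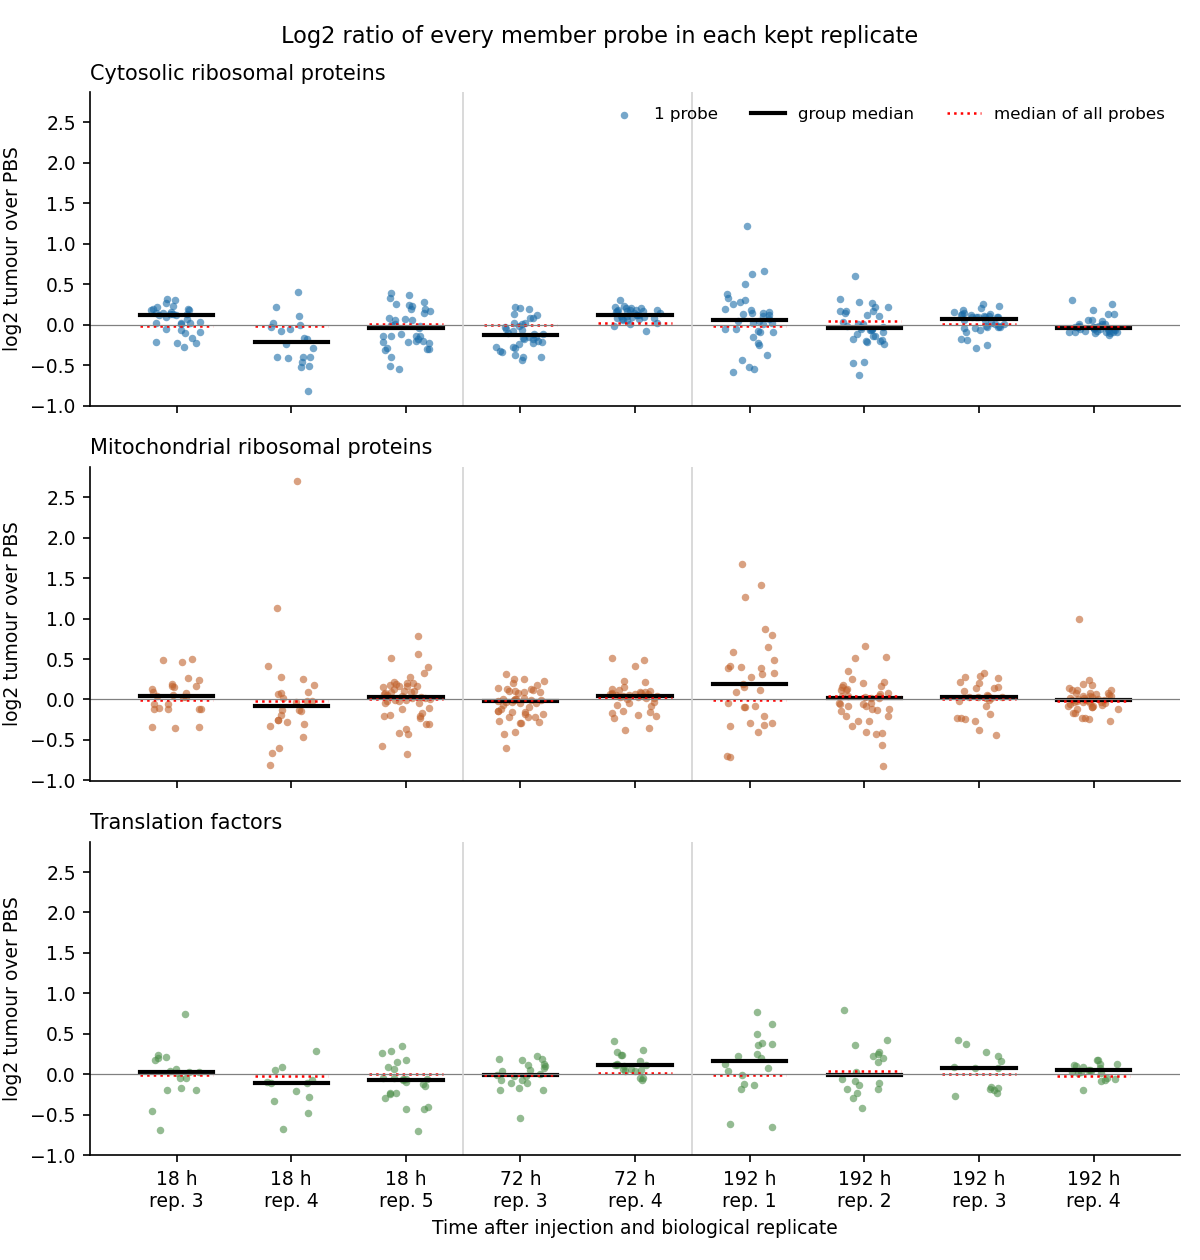
Log2 ratio of tumour over PBS of every member probe in each of the 9 kept replicates, in 3 panels by group, with black bars at the group median and dotted red lines at the median of all probes. Cytosolic medians ran from -0.21 in replicate 4 at 18 h to 0.13 in replicate 4 at 72 h, on both sides of 0.

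Members of a group did not keep their order between replicates of a time. Over the 10 pairs of replicates of 1 time, Pearson's r across cytosolic probes (20 to 36 probes a pair) was -0.49 to 0.27 with a median of -0.013, and 42.6% of comparisons had the same sign. For mitochondrial probes r was -0.55 to 0.40 (median 0.12) with 43.7% of the same sign, and for factors -0.68 to 0.17 (median -0.17) with 44.1%. Over all probes r was -0.47 to 0.07 (median -0.0080), with 47.5% of the same sign. The points of a pair share 2 hybridised sample pairs and the printed spots, so these are descriptions with no test.

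In some replicates the cytosolic median differed between the 2 dye orientations by more than the fitted medians differed between times. In replicate 4 at 18 h the median of 20 cytosolic probes was 0.15 on the array whose tumour RNA carried Cy5 and -0.57 on its partner, whose tumour RNA carried Cy3. In replicate 4 at 72 h it was 0.28 in Cy5 and -0.05 in Cy3 over 33 probes. Replicate 5 at 18 h had -0.15 and 0.0027 over 37 probes, and replicate 3 at 192 h had 0.01 and 0.08 over 36 probes, so the order was not the same in every swap. Replicate 4 at 192 h had 0.03 and -0.10, and replicate 3 at 18 h 0.11 and 0.06. Across cytosolic probes the ratios in the 2 orientations had r between -0.39 and -0.08, and 84 of 195 pairs (43.1%) had the same sign, against 45.4% of 32130 pairs over all probes. Mitochondrial members had the same sign in 91 of 211 pairs (43.1%) and factors in 52 of 106 (49.1%). The largest gap of a member was that of Eif4e, the cap-binding protein, in replicate 3 at 18 h, with 1.93 in Cy5 and -0.44 in Cy3.

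**Figure D4:**
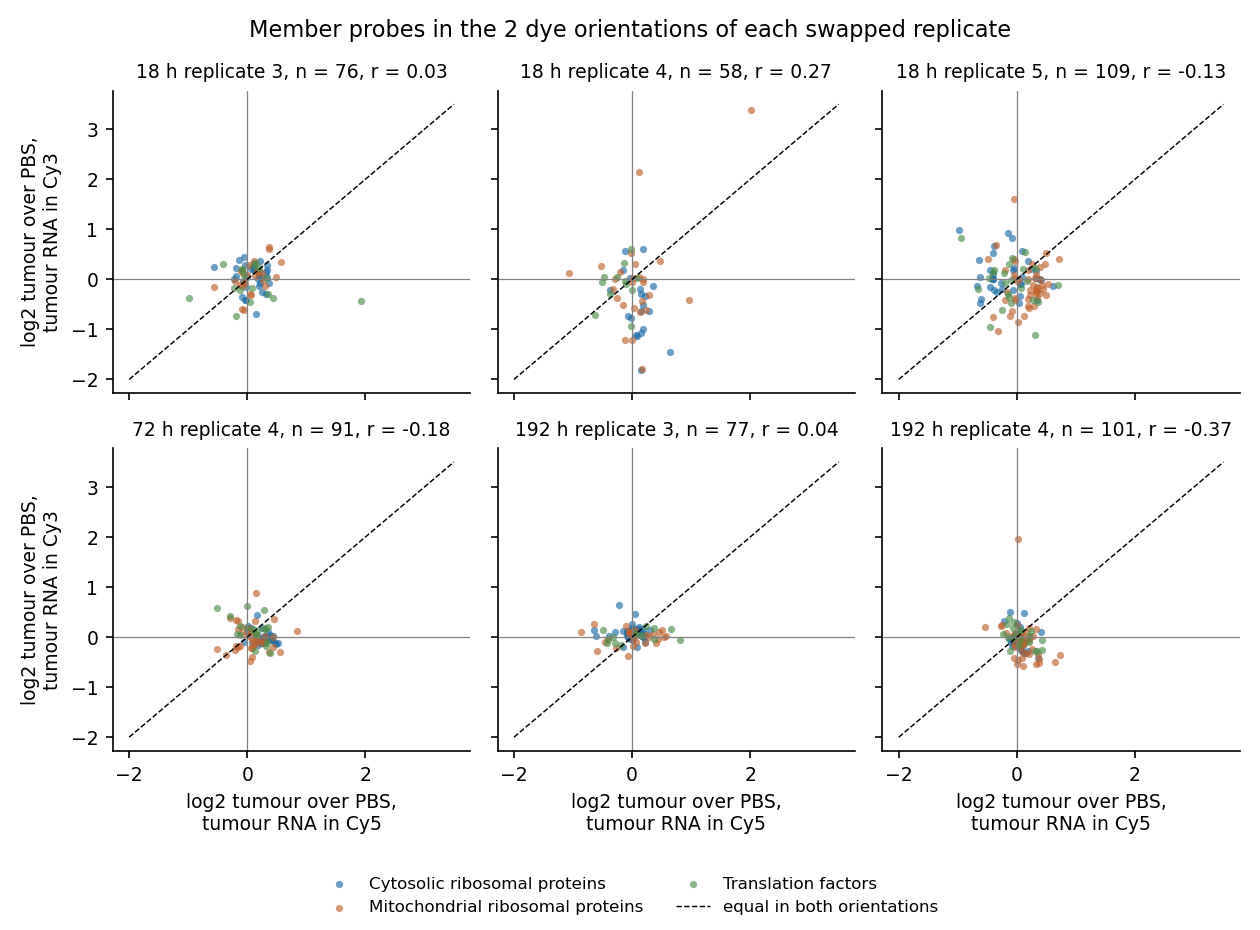
Log2 ratio of tumour over PBS of each member probe with tumour RNA in Cy5 (horizontal axis) and in Cy3 (vertical axis), in the 6 replicates measured as dye swaps, with the dashed line where both are equal. Pearson's r over the members of a replicate lay between -0.37 and 0.27, and points spread along the vertical axis in replicate 4 at 18 h.

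At 18 h the member with the smallest p was Mrps36, a protein once assigned to the mitochondrial small subunit and since placed in the 2-oxoglutarate dehydrogenase complex. Its log2 ratio was -0.81 and -0.41 in replicates 4 and 5, and the fit gave -0.61 ± 0.17 (adjusted p = 0.759). In the 2 orientations of replicate 4 it stood at 0.17 in Cy5 and -1.80 in Cy3, and in replicate 5 at 0.02 and -0.84, so the low values lay on the arrays with tumour RNA in Cy3. At 192 h it had 0.65, -0.57, -0.24 and -0.01 in replicates 1 to 4, on both sides of 0. Mrps18a, a mitochondrial protein related to bacterial ribosomal protein S18, had 0.50, 2.70 and 0.17 in replicates 3, 4 and 5, and 1.12 ± 0.38 in the fit (adjusted p = 0.759). All 3 replicates lay above 0, but the value of replicate 4 (2.02 and 3.38 in its 2 arrays) stood far from the other two. Without that replicate the fitted ratio was 0.34, and with a loess inside each printed sub-grid it was 0.42.

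Mrpl3, a large subunit protein of the mitochondrial ribosome, was at -0.36 and -0.42 in replicates 3 and 5 at 18 h (fit -0.39 ± 0.14, adjusted p = 0.759). It was below 0 in all 4 arrays behind those values, the lowest at -0.73. Eif3a, the largest subunit of eIF3, had -0.04, -0.33 and -0.70 in replicates 3, 4 and 5 (fit -0.36 ± 0.15, adjusted p = 0.804). Eif3c, another core subunit of eIF3, had -0.20, -0.47 and -0.05 (fit -0.24 ± 0.12, adjusted p = 0.819). Both eIF3 subunits lay below 0 in 3 of 3 replicates, and the value nearest 0 was -0.04 for Eif3a and -0.05 for Eif3c. Rpl34, of the cytosolic large subunit, had 0.22 and 0.39 in replicates 3 and 5 (fit 0.30 ± 0.14). Rps27, of the cytosolic small subunit, had 0.02, -0.52 and -0.30 (fit -0.27 ± 0.12), and Mrps14, of the mitochondrial small subunit, had 0.16, -0.66 and -0.68 (fit -0.39 ± 0.18). The adjusted p of each of these 3 was 0.819 in the limma test.

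Few members kept 1 direction in every replicate of 18 h. Of the members measured in all 3 replicates, Rps7 was below 0 throughout among 20 cytosolic probes, Eif3a and Eif3c among 7 factors, and none among 14 mitochondrial probes, where Mrps18a was the 1 probe above 0 throughout. Over all probes 14.6% were below 0 in every replicate and 9.86% above. These genes were named after their values were seen.

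At 72 h there were 2 replicates, and replicate 3 had tumour RNA in Cy5 alone, so its values entered the fit corrected by the dye term. That term rests on the 3 replicates with 1 orientation, among them the 2 poly(A) replicates of 192 h, and it put single fitted values beyond both replicates. Mrps17, a small subunit protein of the mitochondrial ribosome, had -0.16 and -0.21 in replicates 3 and 4 and a fitted value of -0.55 ± 0.23 (adjusted p = 0.999), which was -0.18 without the dye term. Mrps7 had -0.14 and -0.05 with a fit of -0.48 ± 0.26, and Mrpl10 had -0.21 and 0.07 with a fit of -0.38 ± 0.24. Rps10 had -0.28 and 0.07 (fit -0.41 ± 0.26), and Mrpl39 had -0.04 and 0.51 (fit 0.38 ± 0.22). Without the dye term these 4 stood at -0.10, -0.07, -0.11 and 0.23. Eef1aknmt, which methylates elongation factor eEF1A, had -0.11 and 0.41 (fit 0.28 ± 0.18), Rpl22 had 0.19 and 0.21 (fit 0.22 ± 0.15), and Mrps36 had 0.01 and -0.03 (fit -0.25 ± 0.19). The adjusted p of all 8 was 0.999 in the limma test. Rpl22 was the 1 of the 8 with nearly equal values above 0 in both replicates.

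At 72 h both replicates were above 0 for 7 of 32 cytosolic, 8 of 38 mitochondrial and 6 of 18 factor probes, where 23.1% of all probes were. Both were below 0 for 2 cytosolic probes (Rpl34 and Rpl35), 5 mitochondrial probes (Mrpl12, Mrpl17, Mrpl28, Mrps17 and Mrps7) and no factor, where 24% of all probes were. The 6 factors above 0 in both replicates were Eef1akmt2, Eif3d, Eif3k, Eif4ebp2, Eif4enif1 and Eif4h. Eif4ebp2 was the highest of them by its lower replicate, with 0.18 and 0.13.

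At 192 h Mrps7, a small subunit protein of the mitochondrial ribosome, had the smallest p of the members. Its log2 ratio was 1.67, -0.27, 0.21 and 0.99 in replicates 1 to 4, and the fit gave 0.65 ± 0.17 (adjusted p = 0.999). The replicates did not share a direction. The arrays of replicate 4 differed widely, at 0.01 (tumour in Cy5) and 1.97 (tumour in Cy3). With spots above their local background only, it stood at -0.12. Rpl9, of the cytosolic large subunit, had -0.59, -0.62, -0.06 and 0.06 (fit -0.30 ± 0.15), with the 2 poly(A) replicates low and the 2 total RNA replicates near 0. With total RNA replicates only, its fitted ratio was -0.0022. Rpl7l1, a paralogue of Rpl7 with a role in ribosome biogenesis, had 0.66, 0.15, 0.25 and -0.09 (fit 0.24 ± 0.12). Eif2s2, the beta subunit of eIF2, had 0.20, 0.79, -0.18 and 0.13 (fit 0.24 ± 0.12).

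The remaining members of smallest p at 192 h were all mitochondrial. Mrpl49 had -0.09 and 0.66 in replicates 1 and 2 (fit 0.29 ± 0.15). Replicate 1 had tumour RNA in Cy5 alone and replicate 2 in Cy3 alone, so the dye term took up the whole gap between these values. The standard error of Mrpl49 therefore holds none of that gap and rests on other times and on the limma prior. Mrps17 had 1.41, -0.42, 0.03 and 0.07 (fit 0.27 ± 0.15), Mrpl53 had 1.27, -0.43 and 0.02 in replicates 1, 2 and 4 (fit 0.29 ± 0.16), and Mrpl3 had 0.41, -0.12, 0.14 and 0.24 (fit 0.17 ± 0.10). The adjusted p of each of these members was 0.999 in the limma test. In Mrps7, Mrps17 and Mrpl53 the highest value was that of replicate 1, a single array of poly(A) RNA with tumour RNA in Cy5, and the lowest that of replicate 2, poly(A) RNA with tumour RNA in Cy3. The dye term took up part of the gap between those 2 replicates, so the standard errors of these members do not hold all of it. Over all probes the ratios of those 2 replicates had r = -0.47. Of 35 cytosolic probes measured in all 4 replicates, Rpl36al was above 0 throughout (up to 0.22) and Rpl32 and Rps29 below 0 throughout (down to -0.20), where 3.57% of all probes were above and 3.62% below. None of 12 mitochondrial and 6 factor probes measured in all 4 replicates kept a direction.

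**Figure D5:**
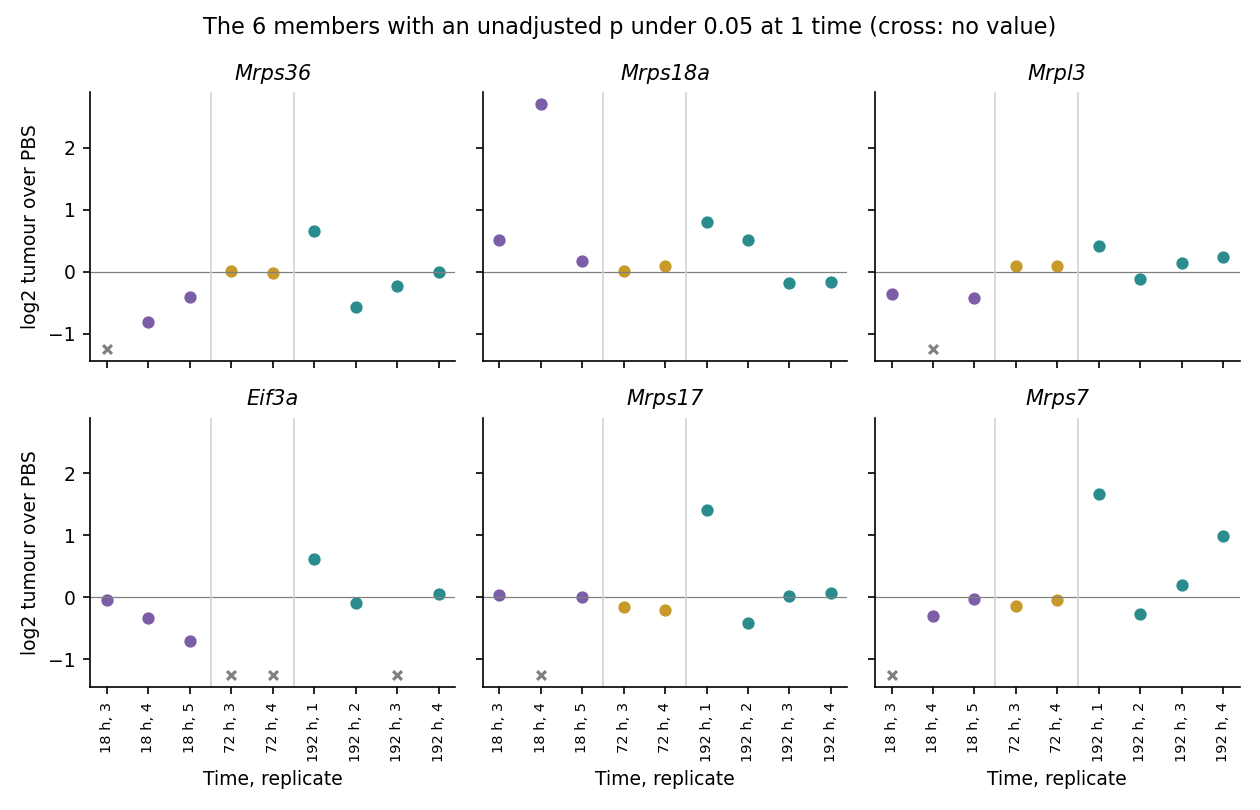
Log2 ratio of tumour over PBS in each kept replicate for the 6 members with an unadjusted p under 0.05 at 1 time, with colours by time and a grey cross where a replicate had no value. Mrps18a reached 2.70 in replicate 4 at 18 h, and Mrps7 ran from -0.27 to 1.67 at 192 h.

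The second question was whether the ratio changed with time. The limma F test over the times called 0 of 99 members, where 0.0328% of 6103 probes were called, and 5 members had an unadjusted p under 0.05 (Mrps7, Mrpl3, Eif3a, Eif2ak3 and Mrps17), where 3.59% of all probes did. The next by p were Mrps36, Mrpl53 and Eif3c, and the adjusted p of all 8 was 0.999. With total RNA replicates only, 0 of 83 members had an unadjusted p under 0.05 in the F test. Without 192 h replicate 1 it was 0 of 91, and with any other single replicate left out 2 to 5 members. All 18 h and 72 h replicates were total RNA on layout 5, while 192 h replicates 1 and 2 were poly(A) RNA on layout 3. Differences between 192 h and the earlier times therefore mix time with RNA kind and layout. Mrpl3 was 0.56 ± 0.17 higher at 192 h than at 18 h (adjusted p = 0.981), Eif3a 0.56 ± 0.21, Mrps36 0.57 ± 0.21, Mrps7 0.81 ± 0.29 and Eif2ak3 0.66 ± 0.25, all on the log2 scale and at the same adjusted p. The difference between 192 h and 18 h was called for 0 of 86 members, where 0.0207% of 4834 probes were called, and these 5 were the members with an unadjusted p under 0.05, where 4.55% of all probes lay. Of the factors, 17 of 20 had a higher fitted ratio at 192 h than at 18 h, of the cytosolic probes 22 of 33 and of the mitochondrial probes 14 of 33, where 56.7% of all probes did and 43.3% had a lower one. Between 72 h and 18 h 0 of 73 members had an adjusted or unadjusted p under 0.05, where 0% and 2.58% of 3370 probes did; 20 of 31 cytosolic, 12 of 28 mitochondrial and 11 of 14 factor probes were higher at 72 h, where 53.5% of all probes were. Between 192 h and 72 h 0 of 84 members were called, where 0.0236% of 4241 probes were, and 3.28% of those probes had an unadjusted p under 0.05. The 2 members under that level were Mrps17 (0.83 ± 0.27 higher at 192 h) and Mrps7 (1.13 ± 0.31 higher), both with fitted 72 h values beyond their replicates. In that comparison 17 of 32 cytosolic, 23 of 36 mitochondrial and 10 of 16 factor probes were higher at 192 h, where 54.4% of all probes were. All replicates of 192 h lay above all of 18 h for 3 factors (Eef1e1, Eif2ak3 and Eif3d), 3 mitochondrial members (Mrpl3, Mrpl13 and Mrpl32) and no cytosolic member, where 7.99% of all probes did. Mrps18b was the 1 member with all of 192 h below all of 18 h, where 6.95% of all probes were. Both counts are small, and a probe with fewer replicates separates more easily.

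The mean over the 3 times was called for 0 of 72 members, where 0% of 3171 probes were called. By group, 13 of 31 cytosolic, 17 of 27 mitochondrial and 8 of 14 factor probes had a mean above 0, where 43.5% of all probes did and 56.5% had one below 0. Mrps36 was the 1 member with an unadjusted p under 0.05, where 2.55% of all probes lay, at -0.30 ± 0.10 (adjusted p = 0.999). Mrps18a (0.46 ± 0.24), Eef1aknmt (0.16 ± 0.10), Mrpl10 (-0.19 ± 0.12) and Mrpl52 (0.13 ± 0.08) followed at the same adjusted p in the limma test.

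Control of initiation was represented by Eif4e and by 4 regulators, Eif4ebp2, Eif4enif1, Eif2ak1 and Eif2ak3. Eif4e had 0.75, -0.28 and -0.23 in replicates 3, 4 and 5 at 18 h, -0.54 in replicate 3 and 0.28 in replicate 4 at 72 h, and -0.61 (replicate 1), -0.20 (replicate 3) and 0.05 (replicate 4) at 192 h, with values on both sides of 0 at each time. Eif4ebp2 had 0.17 in replicate 5 at 18 h, 0.18 and 0.13 at 72 h, and stood at -0.12 (replicate 1) and -0.07 (replicate 4) at 192 h. Eif2ak1, the haem-regulated eIF2 kinase, had 0.21, -0.10 and -0.04 at 18 h, and -0.19 and 0.07 at 72 h. Its values at 192 h were 0.25, -0.17 and 0.13 (replicates 1, 3 and 4), again on both sides of 0. Eif4enif1, a transporter that binds eIF4E, had 0.02 (replicate 3) and -0.12 (replicate 5) at 18 h, and 0.00019 and 0.05 at 72 h. Its values at 192 h were 0.42 (replicate 2), -0.27 (replicate 3) and 0.08 (replicate 4). Eif2ak3, known as PERK, the eIF2 kinase of the endoplasmic reticulum, had -0.68 and -0.14 in replicates 3 and 5 at 18 h, 0.11 in replicate 3 at 72 h, and 0.77 (replicate 1), 0.03 (replicate 2) and -0.04 (replicate 4) at 192 h. The fit of Eif2ak3 was -0.41 ± 0.20 at 18 h and 0.25 ± 0.16 at 192 h (adjusted p = 0.819 at 18 h and 0.999 at 192 h in the limma test). Elongation was covered by Eef1e1, a scaffold protein of the aminoacyl tRNA synthetase complex, and by the methyltransferases of eEF1A; no probe for eEF1A or eEF2 themselves was among the members.

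Among the 23 members with a value in all 9 replicates, 19 were cytosolic, 2 mitochondrial (Mrps16 and Mrps18a) and 2 factors (Eif3c and Eif2s2). Rps4x, a small subunit protein encoded on the X chromosome, varied least, from -0.22 to 0.15, and was above 0 in 4 of 9 replicates. Rps4l, Rps6 and Rpl32 followed with ranges of 0.38, 0.39 and 0.49. The widest ranges were those of Mrps18a (2.88), Rps10 (1.69) and Rps7 (1.15). No cytosolic member of the 19 was above 0 in more than 6 or in fewer than 2 of 9 replicates. The 2 probes of Rpl11, which target the same gene, had fewer values and disagreed at 192 h in replicate 1, at -0.55 and 0.26.

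Of the genes that act on the same pathway from outside the rule, none was called. The lists hold 6 probes of other TOP mRNAs, 9 of mTOR and S6 kinase signalling, 10 of ribosome biogenesis, 8 of targets of the integrated stress response, 14 of aminoacyl tRNA synthetases, 5 of mitochondrial translation factors and 3 of release and recycling. At 18 h the median fitted ratio was 0.04 for TOP mRNAs (2 higher and 2 lower), -0.02 for mTOR signalling (3 and 4), 0.02 for ribosome biogenesis (4 and 3), -0.03 for stress response targets (3 and 3) and -0.13 for synthetases (1 and 7). At 192 h these lists had medians of 0.02 (5 higher and 1 lower), 0.02 (4 and 3), 0.05 (5 and 3), 0.06 (3 and 2) and 0.06 (7 and 6). An unadjusted p under 0.05 in the limma test was seen at 18 h for 1 of 8 synthetase, 1 of 4 TOP and 1 of 6 stress response probes. Over all probes 5.97% had one at 18 h. For synthetases it was also seen in 1 of 13 probes at 192 h, where 3.71% of all probes had one. At 72 h the medians were 0.14 (4 and 0), 0.01 (3 and 2), -0.17 (2 and 3), -0.03 (2 and 2) and -0.03 (5 and 6). Some of these fitted medians lay beyond the medians of replicates 3 and 4, which also take in untested probes. The replicate medians were -0.05 and -0.04 for mTOR signalling, -0.06 and -0.07 for ribosome biogenesis, and -0.0072 and 0.015 for synthetases. Mitochondrial translation factors had a median of -0.25 at 18 h (0 higher and 3 lower), -0.31 at 72 h (0 and 3) and 0.10 at 192 h (3 and 1). Their replicate medians at 72 h were -0.0032 (replicate 3, 4 probes) and -0.16 (replicate 4, 3 probes), so the fitted -0.31 lay beyond both. Release and recycling factors had -0.03 (0 and 1), -0.23 (0 and 2) and 0.09 (3 and 0).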

How the data were processed

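Prefrontal cortex RNA of tumour and PBS mice was hybridised together on 2-colour arrays. The authors deposited 3 scanner files per array, whose spot intensity had the local background subtracted already, per the file headers; the image software is not given in the sources used here. They also deposited a score for each spot of an array, a log-scale ratio whose base and normalization are not stated; it served here for channel assignment, signs and tests only. No value column belonged to an unlisted sample.

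Each file was normalized by a global loess (span 0.3, 4 iterations) of the log2 ratio on mean log2 intensity, and 3 files were averaged per array and then arrays per replicate. A probe is a GenBank entry named through the platform annotation; 12 probes with several symbols were left out. Arrays whose non-member probes had a mean Spearman rho under 0.1 with other layouts were left out, with 60 respiratory chain probes choosing the comparison arrays. A check with ribosomal genes kept the same 16 arrays. A dye swap needed both orientations.

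Probes with at least 2 replicates at a time were tested with limma 3.58.1 (R 4.3.3) on time means and a dye term, with Benjamini-Hochberg adjustment over all probes at 0.05; the prior had 6.05 degrees of freedom. The test was checked on simulated data. Alternatives covered background, normalization, scanner file, arrays, dye, filters, layout, RNA kind and replicates. Summaries used Python 3.11.15, pandas 2.3.3 and numpy 2.4.6, and plots matplotlib 3.10.9. The number of arrays limits the precision.

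Members and gene lists were chosen with earlier results of these data known, as was the limit of 0.1. Named are the 8 members of smallest p at each time and in the F test, the 5 of the mean, the 6 brightest and 3 dimmest, the one with the largest dye gap, those measured in all replicates by range, and regulators of initiation fixed by name. Members that kept 1 direction or did not overlap were named after their values were seen.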

Additional observations from a re-analysis of the deposited data

Results flagged for a closer look

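In 10 members every replicate of one time lay on one side of 0 and every replicate of another time on the opposite side, in 11 comparisons of times. Each difference below is between the means of the replicate log2 ratios of the later and the earlier time. Between 72 h and 18 h this held for 7 of 73 members, where 7.33% of all probes did so. Mrpl3 had 0.09 and 0.09 at 72 h and -0.36 and -0.42 at 18 h, a difference of 0.478. Rpl34 had -0.44 and -0.08 at 72 h and 0.22 and 0.39 at 18 h, a difference of -0.561. Mrps17 had -0.16 and -0.21 at 72 h and values of at most 0.03 above 0 at 18 h, a difference of -0.202. Rpl7l1 had 0.13 and 0.31 at 72 h and -0.27 and -0.02 at 18 h, a difference of 0.362. The other three differences were -0.289 for Rpl35, -0.280 for Mrpl12 and 0.431 for Eif3d.

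Between 192 h and 18 h this held for 2 of 86 members, where 4.32% of all probes did so, with a difference of -0.272 for Mrps18b and 0.290 for Eef1e1. Between 192 h and 72 h it held for 2 of 84 members, where 5.07% of all probes did so. Mrps18b differed by -0.265, and Eif4ebp2, with -0.12 and -0.07 at 192 h and 0.18 and 0.13 at 72 h, by -0.253. Each time held only 2 or 3 values of these members. In the limma fit with the dye term none of these differences passed: they were 0.37 ± 0.20 for Mrpl3, -0.42 ± 0.20 for Rpl34, -0.57 ± 0.31 for Mrps17 and 0.28 ± 0.26 for Rpl7l1 (adjusted p = 0.998 each), and -0.25 ± 0.22 for Eif4ebp2 (adjusted p = 1.00). For the other five members the adjusted p was between 0.981 and 1.00.

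Dixon's criterion was applied to 56 groups of 4 values at 192 h, those of 53 member probes and of 3 group medians, and to no group of another time. It marked 2 of them, and chance marks about 1 in 20 groups. In Mrpl4, replicate 1 stood at -0.41, with the other replicates between -0.01 and 0.04. In Mrpl11, replicate 1 stood at 0.33, with the other replicates between -0.27 and -0.20. Both values came from the single poly(A) array with tumour RNA in Cy5.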

How the results depend on the processing

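No member was called under any of the 27 settings run at 18 h and 192 h and in the F test, or the 25 at 72 h and for the mean, which had no test with a 72 h replicate left out. The smallest adjusted p of a member over those settings was 0.280 at 18 h (scanner file 3 alone), 0.447 at 72 h (all 23 arrays), 0.861 at 192 h (without 192 h replicate 4), 0.733 for the mean (print layout as random block) and 0.603 in the F test (all 23 arrays). Of the group medians, brightness ranks and counts of calls, 10 moved and 328 did not; a median or rank moved if it differed by at least 1 SD of its replicate medians, and a count if by over 1.5 times. With median centring in place of loess the group medians were -0.27 (cytosolic), 0.058 (mitochondrial) and 0.13 (factors) at 72 h, and 0.17 (cytosolic) and 0.22 (factors) at 192 h. With total RNA replicates only they were 0.056 (mitochondrial, 72 h) and 0.0061 (factors, 192 h), and the cytosolic brightness percentile over all 23 arrays was 74.5. Leaving out 1 replicate put the factor median between -0.16 and -0.074 at 18 h, lowest without 18 h replicate 3, and between 0.013 and 0.13 at 72 h, highest without 192 h replicate 1. At 192 h it lay between 0.022 (without 192 h replicate 1) and 0.15 (without 192 h replicate 4), against 0.09 with all. The cytosolic median at 18 h lay between -0.15 and -0.0028, without 18 h replicates 3 and 4. The mitochondrial median kept its sign in 7 of 9 at 18 h and in 7 of 9 at 192 h. The cytosolic median did so in 8 of 9 at 192 h. All 18 h replicates were dye swaps, so only the 3 runs without an 18 h replicate could move an 18 h median. The mitochondrial reversals at 18 h therefore fell among those 3 runs and made up most of them (range -0.043 to 0.011). The factor median was below 0 at 18 h and above 0 at 192 h under 14 of 14 other settings. The same held with each of the 9 replicates left out, of which again only those 3 could move the 18 h median. The setting with total RNA replicates only could not move it either. The cytosolic median at 72 h kept its sign under 7 of 14. For named members 1033 values kept their direction and 41 reversed, and the cause was not tested. Both these 1033 and the 328 above include 18 h values that runs without a replicate of another time could not move. With median centring the reversed values were -0.15 (Eif4e, 18 h), -0.13 (Eif2ak1, 18 h), 0.041 (Eif2ak1, 72 h) and 0.050 (Eif4e, 192 h). A loess inside sub-grids gave 0.046 (Eif4ebp2, 192 h) and -0.014 (Eif2ak1, 192 h), and scaling between arrays gave 0.031 (Eif4e, 192 h). Single scanner files gave 0.18 (file 1) and 0.10 (file 2) for Eif2ak1 at 72 h, -0.026 (file 2, Eif2ak1, 192 h), -0.056 (file 3, Eif2s2, 192 h) and -0.087 (file 3, Eif2ak1, 18 h). Deposited scores, whose base is unknown, gave 0.012 (Rpl9, 192 h), -0.048 (Mrps17, 192 h), 0.051 (Eif2ak1, 72 h), 0.061 (Eif4e, 192 h) and 0.067 (Eif4ebp2, 192 h). All 23 arrays gave 0.10 (Eif2ak1, 72 h) and -0.041 (Eif2ak1, 192 h), and no dye term gave -0.13 (Eif4e, 72 h). Spots above local background gave -0.12 (Mrps7), -0.086 (Mrpl53) and -0.027 (Eif2ak1) at 192 h. Total RNA only gave 0.066 (Rps10), 0.072 (Mrpl10) and 0.070 (Eif2ak1) at 72 h, and -0.026 (Eif2s2) and -0.023 (Eif2ak1) at 192 h. With 1 replicate left out the ranges were -0.25 to 0.26 (Eif4e, 18 h), -0.072 to 0.085 (Eif2ak1, 18 h), -0.10 to 0.070 (Eif2ak1, 72 h), -0.023 to 0.22 (Eif2ak1, 192 h), -0.012 to 0.35 (Mrps17, 192 h), -0.029 to 0.42 (Mrpl53, 192 h), -0.042 to 0.40 (Eif2ak3, 192 h) and -0.099 to 0.088 (Eif4e, 192 h). The deviations of same-numbered replicates from their time means had r from -0.18 to 0.0024 over 769 probes. These r cannot show whether the numbers pair the samples. The 2 dye orientations of the same replicate themselves had r of only -0.39 to 0.09 over all probes. The 2 replicates at 72 h also deviate from their mean by equal and opposite amounts. With the replicate block 0 of 31 members were called in the mean and 0 of 33 in the F test, and Mrps18a stood at -0.23 in the mean. Left-out arrays, the inferred dye channels and the 2 replicates at 72 h limit every direction given.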
